A study of Mus musculus with 56 samples.

Results

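Estrogen receptor alpha, encoded by Esr1, was used to sort mouse mammary tumors of epithelial character into 2 classes, Esr1-high and Esr1-low. The tumors grew from p53null mammary fragments, which lack a tumor suppressor, and the fragments were never irradiated. They were transplanted into inguinal fat pads of female BALB/c hosts cleared of their own epithelium at 3 weeks of age. The hosts, either wild-type or Tgfb1 heterozygote animals (Tgfb1 encodes transforming growth factor beta 1), had been irradiated or sham-irradiated 3 days earlier. There were 18 tumors of irradiated and 6 of sham-irradiated heterozygote hosts (Het_irradiated, Het_sham), and 23 of irradiated and 9 of sham-irradiated wild-type hosts (WT_irradiated, WT_sham). All tumors share the p53null transplant, so no class has a p53-proficient control, and the labels state no radiation dose.

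The members were chosen by measured values of these same arrays. An epithelial score, the mean log2 level of the junction genes Cdh1, Epcam, Cldn3 and Cldn7, was computed for all 56 tumors, and the lowest 8 of 32 tumors of wild-type hosts and 6 of 24 of heterozygote hosts were dropped. The other 42 were ranked by 1 Esr1 probe set within each host genotype. The 14 Esr1-high tumors are the top 8 of wild-type and the top 6 of heterozygote hosts, and the 14 Esr1-low tumors are the bottom 8 and bottom 6. Together they make 28 of the 56 tumors, with 14 more, 8 and 6, in the middle. Among Esr1-high tumors, 6 of wild-type hosts came from irradiated and 2 from sham-irradiated hosts, against 5 and 3 among Esr1-low tumors (Fisher's exact test, two-sided, p = 1). Among Esr1-high tumors of heterozygote hosts 5 came from irradiated and 1 from sham-irradiated hosts, against 4 and 2 among Esr1-low tumors (Fisher's exact test, two-sided, p = 1).

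Estrogen receptor alpha is a nuclear receptor that binds estrogen and then DNA, where FOXA1 and GATA3 open the chromatin it uses. In the normal mammary gland it is made by the hormone-sensing luminal cells, which also make the progesterone receptor, a classic target, and which signal to neighbouring cells through secreted factors such as WNT4, RANKL and amphiregulin. The luminal progenitor and alveolar cells beside them mostly lack the receptor, and make milk proteins under prolactin and STAT5.

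Since the classes were selected on Esr1, its levels are given as a description. In wild-type hosts the log2 level of Esr1 ran from 7.19 through a median of 7.58 to 8.69 in Esr1-high tumors, against 5.72, 6.20 and 6.51 in Esr1-low tumors. Esr1-high tumors of heterozygote hosts ran from 7.59 through 7.97 to 10.42, against 4.55, 5.49 and 6.26 in Esr1-low tumors. The ranges were therefore split with no overlap, as the rule demands, and the gap between class means was 2.91 in heterozygote and 1.5 in wild-type hosts. Just inside and just outside the upper limit lay 7.19 and 7.15 in wild-type and 7.59 and 7.51 in heterozygote hosts. At the lower limit the last middle tumor had 6.52 and the first Esr1-low tumor 6.51 in wild-type hosts, and 6.46 and 6.26 in heterozygote hosts. At the limit of the epithelial score the last tumor kept and the first dropped had 12.2 and 12.17 in wild-type hosts, and 12.03 each in heterozygote hosts. The classes are thus cut from a range without a gap at the limits. Het_irradiated replicate 32, with 10.42, stood apart from the next Esr1-high tumor of its host genotype, Het_irradiated replicate 56 at 8.67.

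**Figure D1:**
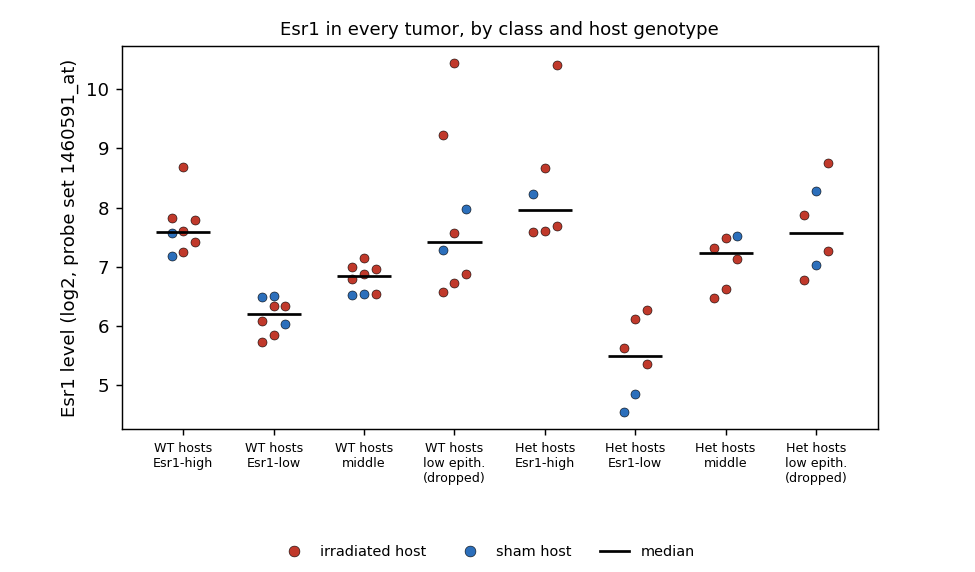
Log2 level of Esr1 in each of the 56 tumors (y axis), by class and host genotype (x axis); points are tumors, colored by host irradiation, and bars are medians. The Esr1-high and Esr1-low points do not overlap by construction. The highest level in wild-type hosts, 10.44, lies in a tumor dropped for its low epithelial score.

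A dimmer Esr1 probe set on the same array, not used in the ranking, followed the first across the 42 tumors (Pearson's r = 0.921 over 24 tumors of wild-type and 0.943 over 18 of heterozygote hosts). It ran from 5.21 through 5.61 to 7.55 in Esr1-high tumors of heterozygote hosts, against 3.56, 4.08 and 4.25 in Esr1-low ones, with no overlap. In wild-type hosts it had 4.62, 5.24 and 6.21 in Esr1-high tumors, against 3.67, 4.26 and 4.72 in Esr1-low tumors, and the ranges overlapped. The dimmest Esr1 probe set stayed near the floor in all tumors, with highest values of 3.72 and 3.73 in Esr1-high tumors of wild-type and heterozygote hosts.

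Dropping epithelial-poor tumors removed some of the highest Esr1 levels of each host genotype. WT_irradiated replicates 59 and 11 had 10.44 and 9.23, above every Esr1-high tumor of wild-type hosts, at epithelial scores of 6.82 and 7.28. Pgr, the progesterone receptor gene, was at 4.14 and 4.67 in those 2 tumors, below the medians of their arrays over probe sets with 1 gene symbol, 6.46 and 6.52.

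Each tumor had 1 array, and precision is set by how many arrays there are. Whether any tumors came from 1 host is not stated, so the p-values cover the spread between these arrays alone. Array medians over all probe sets were 5.92 to 6.00 in wild-type and 5.57 to 5.71 in heterozygote hosts, and classes are compared only within a host genotype. Where a highest level is named over both host genotypes, this offset between arrays is not removed. The epithelial score lay above the Esr1-low median of its host genotype in 14 of 14 Esr1-high tumors. It ran from 12.47 through 12.52 to 12.74 in Esr1-high tumors of wild-type hosts, against 12.20, 12.33 and 12.93 in Esr1-low ones, and from 12.26 through 12.39 to 12.60 in Esr1-high against 12.03, 12.13 and 12.53 in Esr1-low tumors of heterozygote hosts. The 18S ribosomal RNA control differed by -0.49 (Esr1-high minus Esr1-low; permutation test within host genotype, two-sided, p = 0.232), and the 3' minus 5' difference of Actb and Gapdh, a sign of RNA integrity, by 0.014 (permutation p = 0.678). Arrays with an 18S value below 11 numbered 2 among Esr1-high and 0 among Esr1-low tumors. Those 2 were WT_sham replicates 64 and 65, at 9.28 and 9.62. They are the only Esr1-high tumors of sham-irradiated wild-type hosts, so low 18S and sham irradiation cannot be told apart there. In wild-type hosts the class means of 18S differed by -0.76 and the medians by -0.018.

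Between Esr1-high and Esr1-low tumors, with host genotype as a block, limma called 0 of 11098 genes at an adjusted p under 0.05. At an unadjusted p under 0.05 there were 335 genes with higher values in Esr1-high tumors, 3.02% of those tested, and 267 with lower values, 2.41%. The share of genes with a positive log2 fold change was 47.9%, and the median log2 fold change was -0.007 with a median standard error of 0.135. In wild-type hosts alone limma called 0 genes, and 722 had an unadjusted p under 0.05, 3.53% of all with higher and 2.97% with lower values. In heterozygote hosts alone it called 0, with 532 at that level, 2.47% higher and 2.32% lower. The lowest adjusted p was 0.194. Esr1 and the 4 score genes were not tested, since they chose the tumors. Each fold change below is a log2 difference, Esr1-high minus Esr1-low.

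Angpt1, which encodes the vessel-stabilizing ligand of the TIE2 receptor, had the lowest p. It ran from 5.66 through a median of 6.33 to 7.30 in Esr1-high tumors of wild-type hosts, against 4.11, 4.81 and 6.43 in Esr1-low tumors. In heterozygote hosts Esr1-high tumors had 5.14, 6.33 and 6.75, against 4.04, 4.86 and 5.63 in Esr1-low tumors. All 14 Esr1-high tumors lay above the Esr1-low median of their host genotype, though the ranges overlapped in both. The middle tumors were near the Esr1-high ones, with Angpt1 medians of 6.30 in wild-type and 6.45 in heterozygote hosts. In the dropped tumors the medians were higher still, 7.045 and 6.77. The log2 fold change came to 1.33 ± 0.26 (SE; adjusted p from limma, 0.194). It did not pass, and with array weights it did (1.43, limma adjusted p = 0.031); its adjusted p ran from 0.0186 to 0.934 over the other settings.

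Siah1a, a ubiquitin ligase, ran from 9.11 through 9.34 to 9.68 in Esr1-high tumors of wild-type hosts, against 8.54, 8.94 and 9.04 in Esr1-low tumors, so these ranges did not overlap. In heterozygote hosts they did, at 8.90, 8.98 and 9.5 in Esr1-high tumors, against 8.35, 8.63 and 9.22 in Esr1-low ones. Middle tumors had Siah1a medians of 9.19 in wild-type and 9.09 in heterozygote hosts, the latter above the Esr1-high median. The log2 fold change came to 0.42 ± 0.09 (SE; adjusted p from limma, 0.219), and 0.45 with array weights, where it passed (limma adjusted p = 0.031). Rasd1, a Ras-related small GTPase induced by glucocorticoid, had 1.24 ± 0.26 (SE, limma adjusted p = 0.219). Esr1-high tumors had 7.35, 7.87 and 8.56 in wild-type hosts, against 5.38, 6.66 and 7.95 in Esr1-low tumors. In heterozygote hosts the Rasd1 values were 6.70, 7.84 and 8.63 in Esr1-high tumors, against 5.51, 6.58 and 7.11 in Esr1-low tumors. Here too all 14 Esr1-high tumors lay above the Esr1-low median. Angpt1, Siah1a and Rasd1 were picked for their low p in these same tumors, so such counts are no further support.

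In the other direction Inpp5b, an inositol phosphatase, had a log2 fold change of -0.44 (standard error 0.11), Pacc1, a chloride channel activated by acid, of -0.33 (0.09) and Lca5, a ciliary protein, of -0.64 (0.17), each with a limma adjusted p of 0.437. None of the 14 Esr1-high tumors lay above the Esr1-low median for any of these 3, which were picked by p in the same way. Lca5 ran from 5.27 through 5.65 to 5.94 in Esr1-high tumors of heterozygote hosts, against 5.72, 6.47 and 7.28 in Esr1-low tumors. The values of Pacc1 in wild-type hosts were 6.38, 6.79 and 7.03 in Esr1-high tumors, against 6.93, 7.07 and 7.39 in Esr1-low tumors. The ranges overlapped in both cases, and 5 of 6 and 6 of 8 Esr1-high tumors lay below every Esr1-low one. Middle tumors had Pacc1 medians of 7.04 in wild-type and 6.63 in heterozygote hosts, the latter below the Esr1-high median of 6.84. Inpp5b had 8.87, 9.20 and 9.63 in Esr1-high tumors of wild-type hosts, against 8.94, 9.73 and 9.94 in Esr1-low tumors.

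**Figure D2:**
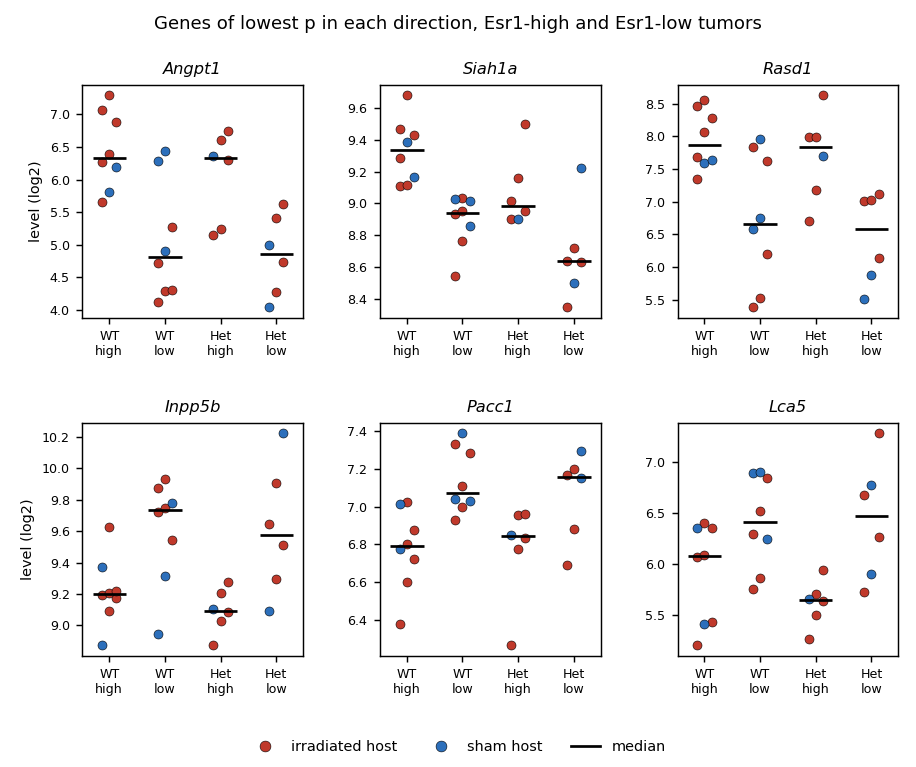
Log2 level (y axes) of the 3 genes of lowest p in each direction, Angpt1, Siah1a and Rasd1 above and Inpp5b, Pacc1 and Lca5 below, in Esr1-high and Esr1-low tumors of wild-type (WT) and heterozygote (Het) hosts. Points are tumors, colored by host irradiation, and bars are medians; the classes overlap in every panel except Siah1a in wild-type hosts.

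The progesterone receptor was then examined as the best known target of estrogen receptor alpha. In wild-type hosts Pgr stayed low in both classes, at 4.02, 4.79 and 5.96 in Esr1-high tumors (lowest, median and highest), against 3.97, 4.72 and 6.07 in Esr1-low tumors. In heterozygote hosts it ran from 4.38 through 8.21 to 12.28 in Esr1-high tumors, against 4.06, 4.62 and 6.08 in Esr1-low tumors. The Pgr level exceeded the median of its own array in 4 of 6 Esr1-high tumors of heterozygote hosts and in 0 of 8 Esr1-high tumors of wild-type hosts, and in 0 of 8 and 0 of 6 Esr1-low tumors. Over all 56 tumors 8 did so, the other 4 being 2 middle tumors and 2 dropped ones. The 4 Esr1-high tumors were the 4 of highest Esr1 among the epithelial tumors of heterozygote hosts. Het_irradiated replicate 32, with Esr1 at 10.42, had Pgr at 12.28. Het_irradiated replicate 56 had 8.52, Het_sham replicate 38 had 10.30 and Het_irradiated replicate 6 had 7.89. The remaining 2, Het_irradiated replicates 49 and 47, had 4.43 and 4.38, with Esr1 at 7.60 and 7.59. Among the tumors dropped for a low epithelial score, 3 of heterozygote hosts had Esr1 above that of Het_irradiated replicate 6, which was 7.69. Het_irradiated replicate 29, Het_sham replicate 19 and Het_irradiated replicate 7 had Esr1 at 8.76, 8.27 and 7.87, with Pgr at 5.70, 6.84 and 5.95. Only replicate 19 of these 3 had Pgr above its array's median. WT_irradiated replicate 21, whose Esr1 level of 8.69 was the highest of the Esr1-high tumors of wild-type hosts, had Pgr at 5.03.

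Pgr was too dim on most arrays to enter the test and was read from a fit of all 18189 genes with no filter. There its log2 fold change was 0.19 ± 0.30 (SE) in wild-type hosts and 3.24 ± 1.20 (SE) in heterozygote hosts. The difference between host genotypes was 3.04 ± 1.14 (SE) and did not pass (limma adjusted p = 0.759). Without Het_irradiated replicate 32 the value in heterozygote hosts was 2.38 ± 1.0 (SE). Pgr over both host genotypes had 1.5 ± 0.62 (SE, limma adjusted p = 0.891).

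Several other genes of hormone-sensing luminal cells had the same high tumors. Foxa1, the pioneer factor of the receptor, ran from 5.93 through 9.14 to 12.48 in Esr1-high tumors of heterozygote hosts, against 3.94, 7.10 and 8.55 in Esr1-low tumors. In wild-type hosts Foxa1 had 5.99, 7.03 and 8.71 in Esr1-high tumors, against 5.09, 6.20 and 8.23 in Esr1-low tumors. Its log2 fold change came to 1.41 ± 0.59 (SE; adjusted p from limma, 0.85), 2.55 in heterozygote and 0.56 in wild-type hosts. Among the 28 tumors compared, the 3 highest levels, 12.48, 10.50 and 10.10, were those of Het_irradiated replicate 32, Het_sham replicate 38 and Het_irradiated replicate 56. WT_sham replicate 17, a middle tumor with Esr1 at 6.52 and Pgr at 8.28, had Foxa1 at 10.74. Without replicate 32 the value in heterozygote hosts was 1.87.

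Cited1, a coactivator of the receptor, was at 3.76, 7.78 and 10.90 in Esr1-high tumors of heterozygote hosts, against 3.94, 4.56 and 5.97 in Esr1-low tumors. Stc2, a secreted glycoprotein induced by estrogen, had 6.20, 8.99 and 12.05 in Esr1-high tumors of heterozygote hosts, against 6.17, 6.73 and 8.73 in Esr1-low ones. The ranges overlapped for both, with the same 3 tumors on top. In wild-type hosts the Cited1 values were 4.28, 4.83 and 6.30 in Esr1-high tumors, against 4.37, 4.85 and 9.22 in Esr1-low tumors, and the highest of these, WT_irradiated replicate 12, was Esr1-low. Stc2 had 6.29, 6.63 and 7.64 in Esr1-high tumors of wild-type hosts, against 5.70, 6.95 and 7.85 in Esr1-low tumors. Stc2 was tested, at 0.70 ± 0.47 (SE, limma adjusted p = 0.925). Its 2 classes overlapped in both host genotypes.

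Tbx3, a transcription factor of mammary development, Cxcl15, a chemokine, and Fxyd2, a sodium pump subunit, belong to the same list of markers and were singled out after their values were seen. Tbx3 was at 9.88, 7.09, 8.11 and 6.48 in Het_irradiated replicates 32 and 56, Het_sham replicate 38 and Het_irradiated replicate 6, and at 5.42 and 4.22 in the remaining 2 Esr1-high tumors of heterozygote hosts. Esr1-low tumors there ran from 3.81 to 6.43. Cxcl15 had 13.15, 8.10, 10.77 and 7.14 in the same 4 tumors and 4.46 and 4.38 in the other pair, with 3.71 to 5.45 in Esr1-low tumors of heterozygote hosts. In wild-type hosts Cxcl15 stayed between 4.39 and 6.02 in Esr1-high and between 4.59 and 5.92 in Esr1-low tumors. The 4 tumors with high Pgr thus lay above every Esr1-low tumor of heterozygote hosts for Tbx3 and Cxcl15, and the other pair did not. For Tbx3 Het_irradiated replicate 6 did so narrowly, at 6.48 against 6.43. High Tbx3 was not particular to tumors with high Pgr. In tumors dropped for a low epithelial score its medians were 6.795 in heterozygote and 7.345 in wild-type hosts. Pgr exceeded the array median in 1 of 6 and 1 of 8 of those. Fxyd2 ran from 6.98 through 8.41 to 9.45 in Esr1-high tumors of heterozygote hosts, against 4.43, 5.29 and 8.02 in Esr1-low ones, and its highest level, 12.61, was in an Esr1-low tumor of a wild-type host.

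Prom1, Tnfrsf11a and Adamts18, also of that list, did not follow the 4 tumors. Prom1, a membrane glycoprotein gene, ran from 8.49 through 10.20 to 10.92 in Esr1-high tumors of heterozygote hosts, against 4.52, 11.06 and 11.69 in Esr1-low tumors, and replicate 32 was the lowest of the Esr1-high ones. Tnfrsf11a, the gene of RANK, the receptor of RANKL, had 5.9, 6.88 and 7.45 in Esr1-high tumors of heterozygote hosts, against 6.68, 7.56 and 8.42 in Esr1-low tumors, again with replicate 32 lowest among the Esr1-high ones. For Adamts18, which encodes a secreted protease, the values there were 5.0, 6.32 and 6.44 in Esr1-high tumors, against 5.09, 6.82 and 8.19 in Esr1-low tumors. The classes overlapped for all 3. Their log2 fold changes were 0.35 (standard error 0.59) for Prom1, -0.34 (0.24) for Tnfrsf11a and -0.04 (0.41) for Adamts18, with limma adjusted p of 0.974, 0.933 and 0.999. In heterozygote hosts alone they were -0.03, -0.77 and -0.70.

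Wnt4, a secreted ligand under progesterone control, had a log2 fold change of 0.16 ± 0.39 (SE, limma adjusted p = 0.983). It ran from 6.71 through 8.73 to 10.94 in Esr1-high tumors of heterozygote hosts, against 6.88, 7.75 and 9.37 in Esr1-low tumors. Tnfsf11, the gene of RANKL, was too dim to be tested and had 3.76, 4.30 and 7.94 in Esr1-high tumors of heterozygote hosts, against 3.54, 4.0 and 4.71 in Esr1-low ones. Its high values, 7.94 and 7.31, lay in Het_irradiated replicates 49 and 56, and the first of these had Pgr at 4.43. Prlr and Areg had no probe set with 1 gene symbol here.

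Over the list of hormone-sensing genes, 12 of 16 had a probe set. In Esr1-high tumors of heterozygote hosts 6 to 11 of these 12, with a median of 9.5, lay above the median of their array, against 4 to 7, with a median of 5, in Esr1-low tumors. Esr1-high tumors of wild-type hosts had 2 to 7, with a median of 5, against 2 to 8, with a median of 5, in Esr1-low tumors. Middle and dropped tumors of heterozygote hosts each had 3 to 10, with medians of 5 and 5.5. In wild-type hosts these had 4 to 8 and 2 to 9, with medians of 6 and 5. Single tumors with high counts thus occurred outside the Esr1-high class too. Of the 8 genes bright enough to test, 0 were called, 1 had an unadjusted p under 0.05 and 6 had positive log2 fold changes, with a median of 0.38. The median was 1.28 in heterozygote and -0.05 in wild-type hosts, where the share of all genes above 0 was 48.7% and 49.9%. It was 0.73 in heterozygote hosts without Het_irradiated replicate 32. Of the 8 differences between host genotypes, 2 had an unadjusted p under 0.05 and 0 were called (limma).

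**Figure D3:**
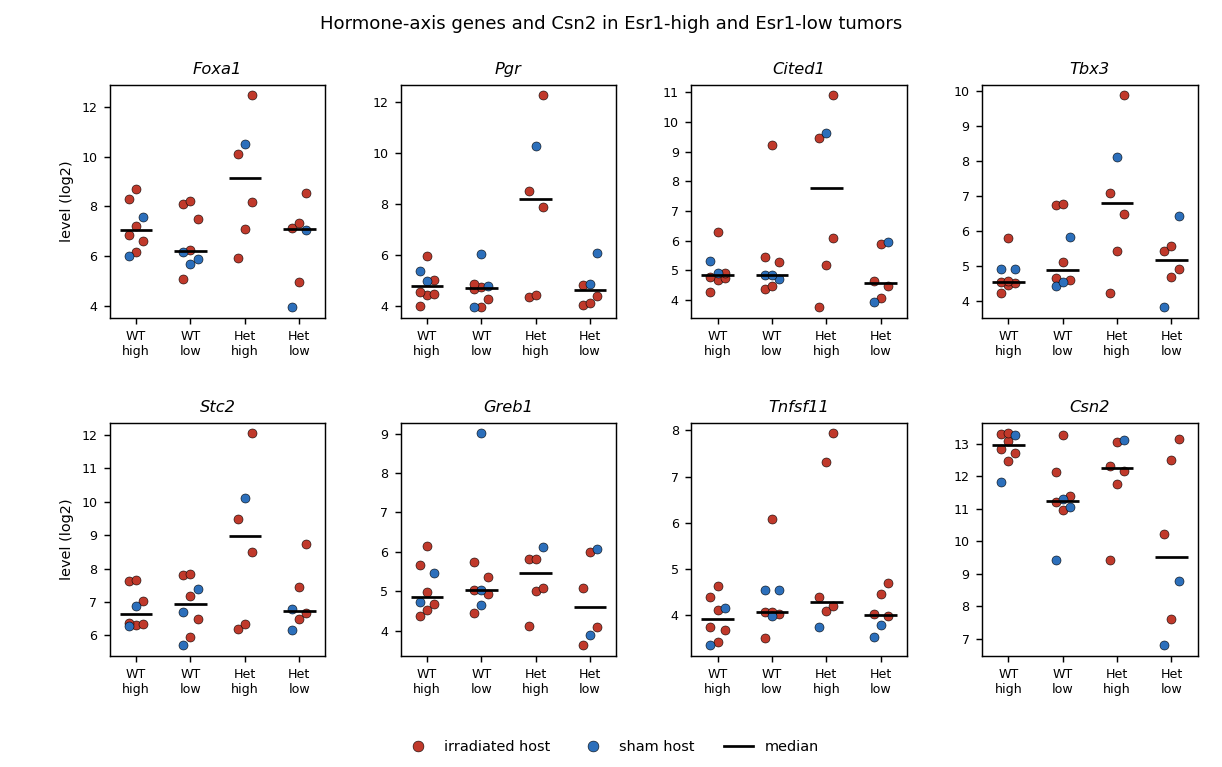
Log2 level (y axes) of Foxa1, Pgr, Cited1, Tbx3, Stc2, Greb1, Tnfsf11 and Csn2 in Esr1-high and Esr1-low tumors of wild-type (WT) and heterozygote (Het) hosts; points are tumors, colored by host irradiation, and bars are medians. Pgr is above 7 in 4 of 6 Esr1-high tumors of heterozygote hosts and below that level in all other tumors shown.

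The receptor's partners and receptors of related hormones were next. Gata3, a luminal transcription factor, had a log2 fold change of 0.37 ± 0.32 (SE, limma adjusted p = 0.943), and its classes overlapped in both host genotypes. Of 12 measured partners and coregulators 8 had positive values (median 0.04), 0 were called and 1, Foxa1, had an unadjusted p under 0.05. Ncoa1, a coactivator, was at 0.25 ± 0.12 (SE). Vdr, the vitamin D receptor gene, was at 0.61 (standard error 0.31) and Nr3c1, the glucocorticoid receptor gene, at 0.23 (standard error 0.12), both with a limma adjusted p of 0.919. Vdr had 8.37, 10.83 and 11.72 in Esr1-high tumors of wild-type hosts, against 7.87, 9.99 and 11.15 in Esr1-low tumors. The overlap was broad. Esr2, which encodes estrogen receptor beta, stayed dim, at 3.99 to 4.47 in Esr1-high and 3.71 to 4.89 in Esr1-low tumors of both host genotypes.

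Among targets of the receptor known from human breast cancer cells no gene was called. Of 28 listed genes 19 were measured, 10 had positive log2 fold changes (median 0.03, range -0.26 to 0.70), 0 were called, and 0 with higher and 1 with lower values had an unadjusted p under 0.05. That 1 was Myc, a growth-promoting transcription factor induced by estrogen in human cells, at -0.26 ± 0.11 (SE, limma adjusted p = 0.85). In heterozygote hosts Myc did not overlap, at 9.97 through 10.16 to 10.35 in Esr1-high tumors, against 10.36, 10.53 and 10.85 in Esr1-low tumors. Greb1, a cofactor of the receptor, was too dim to be tested. It had 4.36, 4.85 and 6.15 in Esr1-high tumors of wild-type hosts, against 4.45, 5.03 and 9.01 in Esr1-low tumors, and 4.12, 5.45 and 6.12 in Esr1-high against 3.63, 4.59 and 6.06 in Esr1-low tumors of heterozygote hosts. The highest level among the tumors compared, 9.01, was thus in an Esr1-low tumor, WT_sham replicate 31, and a dropped tumor of a wild-type host reached 9.78. Susd3, a membrane protein gene regulated by estrogen in human cells, was at -0.16 ± 0.10 (SE).

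The full palindromic estrogen response element, which reads the same on both strands, was searched in RefSeq promoters of GRCm38.p6, each 300 bases long. It was found in 23 of 32851 promoters (0.07%), in 0 of the 8982 tested genes with a promoter entry and in 0 of 383 listed genes with one. That says only that these letters are not in these windows.

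Milk protein genes all had positive log2 fold changes. The 9 measured ones had a median of 1.45 (2.07 in wild-type and 0.49 in heterozygote hosts), 6 had an unadjusted p under 0.05, against 3.02% of all genes tested in that direction, and 0 were called. The 9 genes are not independent replicates of each other. Csn2, which encodes beta-casein, ran from 11.82 through 12.96 to 13.33 in Esr1-high tumors of wild-type hosts, against 9.41, 11.25 and 13.28 in Esr1-low tumors. In heterozygote hosts Csn2 had 9.42, 12.25 and 13.12 in Esr1-high tumors, against 6.79, 9.5 and 13.15 in Esr1-low tumors. In 13 of 14 Esr1-high tumors it lay above the Esr1-low median of the host genotype, and the ranges overlapped because some Esr1-low tumors were as high. Its log2 fold change came to 1.77 ± 0.53 (SE; adjusted p from limma, 0.569). Beside this, 14 of 14 Esr1-high tumors had an epithelial score above the Esr1-low median, and with that score as a covariate the value was 1.23 and the median of the list 1.07. The part of the score in the milk gene values was not tested further. In bulk RNA fewer cells of a type and less RNA per cell cannot be told apart.

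Glycam1, a mucin-like milk protein gene, had the widest difference of the list, 2.65 ± 0.85 (SE, limma adjusted p = 0.683). It had 5.70, 10.37 and 11.30 in Esr1-high tumors of wild-type hosts, against 4.03, 7.54 and 10.57 in Esr1-low tumors. In heterozygote hosts it had 3.96, 9.54 and 12.56 in Esr1-high tumors, against 3.59, 4.44 and 9.04 in Esr1-low tumors. Both classes thus held tumors near the floor and tumors with high levels. Csn1s2a, another casein gene, had 2.17 ± 0.77 (SE). Btn1a1, which encodes butyrophilin of the milk fat globule, had 1.45 ± 0.46 (SE). In wild-type hosts 7 of 8 Esr1-high tumors lay above every Esr1-low tumor for Btn1a1, with 7.39, 8.20 and 10.46 in Esr1-high tumors against 4.71, 6.37 and 7.60 in Esr1-low tumors.

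STAT5 proteins drive milk protein genes downstream of prolactin. Stat5b had a log2 fold change of 0.38 ± 0.13 (SE, limma adjusted p = 0.717), and all 14 Esr1-high tumors lay above the Esr1-low median. It ran from 8.57 through 8.96 to 9.36 in Esr1-high tumors of wild-type hosts, against 8.04, 8.51 and 9.27 in Esr1-low tumors. Stat5a had 0.51 ± 0.24 (SE), and its highest level in Esr1-high tumors of heterozygote hosts, 10.45, was that of Het_irradiated replicate 32. The letters TTCNNNGAA, to which STAT5 is known to bind and which read the same on both strands, were searched in the 250 bases before the start of each gene. They were found in 2306 of 32851 RefSeq promoters (7.02%) and in 3 of the 6 measured milk genes with a promoter entry, Csn1s1, Csn2 and Glycam1. The stretch of GRCm38.p6 from -160 to -81, counted from each start, is shown for these 3, on the strand of the gene, because these genes had positive values together. Capitals mark the match.
Csn1s1, chr5:87666048-87666127, plus strand: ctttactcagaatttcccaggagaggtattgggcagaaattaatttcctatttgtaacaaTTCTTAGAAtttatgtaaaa
Csn2, chr5:87699506-87699585, minus strand: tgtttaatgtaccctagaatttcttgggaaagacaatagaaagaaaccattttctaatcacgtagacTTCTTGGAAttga
Glycam1, chr15:103565162-103565241, minus strand: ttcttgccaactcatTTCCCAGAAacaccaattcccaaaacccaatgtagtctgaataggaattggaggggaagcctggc
The match runs from -100 to -92 in Csn1s1, from -93 to -85 in Csn2 and from -145 to -137 in Glycam1. A match of letters is a description and does not show that STAT5 binds there in these tumors.

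Genes of luminal progenitor and alveolar cells other than the milk genes had a median log2 fold change of 0.40, with 13 of 15 positive, 1 at an unadjusted p under 0.05 and 0 called. That 1 was Cd14, a lipopolysaccharide receptor made by these cells, at 0.66 ± 0.29 (SE, limma adjusted p = 0.894). Elf5, the transcription factor of the alveolar lineage, had 11.56, 12.02 and 12.71 in Esr1-high tumors of wild-type hosts, against 8.71, 11.04 and 12.41 in Esr1-low tumors. In heterozygote hosts the order turned, with 9.77, 11.26 and 11.96 in Esr1-high tumors, against 10.41, 11.87 and 12.42 in Esr1-low tumors. Its log2 fold change was 1.20 ± 0.43 (SE) in wild-type and -0.45 ± 0.42 (SE) in heterozygote hosts, and the difference did not pass (-1.65, standard error 0.64, limma adjusted p = 0.807). The lowest Elf5 level of the Esr1-high class, 9.77, was that of Het_irradiated replicate 32, which also had the lowest Kit level, 9.21. Kit, the receptor that marks luminal progenitors, had 0.02 ± 0.26 (SE) over both host genotypes. Tspan8, a surface protein of mammary progenitors, had 0.96 ± 0.54 (SE), at 1.89 in wild-type and -0.28 in heterozygote hosts.

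Keratins of luminal and basal cells gave no called gene. Krt8, a keratin of all luminal cells, had a log2 fold change of 0.01 with a 95% interval from -0.25 to 0.27. Krt19, a luminal keratin, had 1.11 ± 0.39 (SE, limma adjusted p = 0.767). It ran from 10.70 through 11.88 to 14.15 in Esr1-high tumors of heterozygote hosts, against 9.37, 9.97 and 11.35 in Esr1-low tumors. Krt23, an acidic keratin, was at -0.60 ± 0.35 (SE). Krt5, the basal keratin, had 0.06 with a 95% interval from -1.19 to 1.31, and single Esr1-low tumors reached 12.07 and 10.97 where the class medians were 6.43 in wild-type and 6.17 in heterozygote hosts. Of 14 basal keratin and hemidesmosome genes 7 had positive values and 0 were called, with medians of 0.74 in heterozygote and -0.59 in wild-type hosts. Lamb3, a laminin chain, had 0.45 and Trp63, a basal transcription factor, 0.57, with standard errors of 0.42 and 0.55.

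Myoepithelial contractile genes had a median of -0.23, with 3 of 10 positive and 0 called. Lmod1, an actin nucleator of smooth muscle, had 5.63, 5.91 and 6.08 in Esr1-high tumors of heterozygote hosts, against 6.13, 6.47 and 6.91 in Esr1-low tumors, with no overlap, and -0.26 ± 0.12 (SE) over both host genotypes (limma adjusted p = 0.904). Actg2, smooth muscle actin gamma, had -0.66 ± 0.39 (SE). Of 13 genes of mesenchymal transition 4 had positive values (median -0.08). Vim, an intermediate filament of mesenchymal cells, had -0.46 ± 0.20 (SE, limma adjusted p = 0.88), and none of the 14 Esr1-high tumors lay above the Esr1-low median. Cdh2, N-cadherin, had -0.96 ± 0.60 (SE).

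Among 30 proliferation genes 5 had positive log2 fold changes, with a median of -0.13 in each host genotype, and 0 were called. Tpx2, a spindle assembly factor, had 8.49, 9.12 and 9.76 in Esr1-high tumors of wild-type hosts, against 8.72, 9.73 and 10.42 in Esr1-low tumors. Its log2 fold change was -0.42 ± 0.16 (SE), and that of Kif11, a mitotic kinesin, was -0.37 ± 0.16 (SE, limma adjusted p = 0.792 and 0.85). Mki67, the gene of the proliferation antigen Ki-67, had 0.02 with a 95% interval from -0.26 to 0.30. The classes overlapped in the mean level of the list, at 9.22, 9.48 and 10.11 in Esr1-high tumors of heterozygote hosts against 9.05, 9.74 and 10.08 in Esr1-low tumors.

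Regulators of the first gap phase of the cell cycle had 5 of 19 positive (median -0.10), Notch genes 9 of 14 (0.08), Wnt genes 10 of 20 (-0.02), and ErbB receptors and ligands 4 of 6 (0.28). Genes of the insulin-like growth factor axis had 9 of 13 positive (0.09), fibroblast growth factor genes 5 of 10 (0.01), and transforming growth factor beta ligands, receptors and targets 13 of 18 (0.07). Luminal transcription factors had 14 of 16 positive (0.14), simple keratins 3 of 5 (0.01), junction genes outside the score 12 of 17 (0.13) and keratinization genes 4 of 8 (0.04). Those keratinization genes had 7 of 8 positive in heterozygote and 2 of 8 in wild-type hosts. Of their 8 differences between host genotypes, 3 had an unadjusted p under 0.05 and none was called (limma). Hypoxia and glycolysis genes had 4 of 20 positive (-0.13) and immediate early genes 11 of 18 (0.09). No gene of these lists was called. Of the 404 measured genes of all 36 lists, 28 with higher and 8 with lower values had an unadjusted p under 0.05, which is 6.93% and 1.98% of them, against 3.02% and 2.41% of all genes tested. The 28 include 6 milk protein genes. The lists were chosen with earlier results of these data known, so these shares are a description and no test.

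Markers of other cells in the tumors were read as whole lists. All 7 measured adipocyte genes and all 5 measured skeletal muscle genes had positive log2 fold changes (medians 0.52 and 0.37), and 0 were called. Car3, an adipocyte carbonic anhydrase, had 1.25 ± 0.67 (SE), and Adipoq, adiponectin, 1.04 ± 0.61 (SE). The mean level of the adipocyte list ran from 7.23 through 7.98 to 9.39 in Esr1-high tumors of wild-type hosts, against 6.47, 7.57 and 7.96 in Esr1-low ones. In heterozygote hosts it had 6.40, 7.23 and 9.08 in Esr1-high tumors, against 5.94, 7.21 and 8.42 in Esr1-low ones, and the highest was Het_irradiated replicate 32. The part of fat pad tissue in other differences was not tested.

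Of 20 fibroblast and matrix genes 15 had positive values (median 0.13), 20 of 20 in heterozygote and 8 of 20 in wild-type hosts, and 0 were called. Dcn, the matrix proteoglycan decorin, had 1.34 ± 0.41 (SE, limma adjusted p = 0.647). It ran from 9.5 through 10.84 to 14.06 in Esr1-high tumors of heterozygote hosts, against 7.71, 8.77 and 10.25 in Esr1-low tumors. In wild-type hosts it had 9.21, 10.14 and 11.46 in Esr1-high tumors, against 8.30, 9.48 and 11.35 in Esr1-low ones. The Dcn level of 14.06 was that of Het_irradiated replicate 32, whose mean level over the whole fibroblast list, 9.96, was inside the range of the other tumors. Dpt, dermatopontin of the matrix, had 0.67 ± 0.28 (SE).

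The neutrophil genes S100a8 and S100a9, which encode calgranulins, had 1.31 (standard error 0.46, limma adjusted p = 0.762) and 1.14 (standard error 0.58), with 4 of 5 measured genes positive. Macrophage genes had 3 of 13 positive (median -0.22) and endothelial genes 8 of 11 (0.05). T and NK cell genes had 2 measured members (median 0.01), mast cell genes 0 and the red cell list 1, and the other listed genes were under the brightness limit or had no usable probe set. The B and plasma cell list had 6 of 6 positive in heterozygote and 0 of 6 in wild-type hosts, with medians of 0.90 and -0.22.

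Interferon-stimulated genes and MHC genes split in sign by host genotype in the same way. All 19 measured interferon-stimulated genes had positive log2 fold changes in heterozygote hosts (median 0.37) and 0 of 19 in wild-type hosts (median -0.43). For MHC class I it was 11 of 11 and 1 of 11, and for class II 5 of 6 and 0 of 6. The mean level of the interferon list ran from 8.87 through 9.58 to 9.99 in Esr1-high tumors of heterozygote hosts, against 7.5, 8.70 and 10.59 in Esr1-low tumors. In wild-type hosts it had 7.78, 9.48 and 11.26 in Esr1-high tumors, against 8.95, 9.78 and 11.05 in Esr1-low tumors, so the classes overlapped throughout. Genes of such a list vary together and are not independent replicates. Of the 19 differences between host genotypes 0 had an unadjusted p under 0.05.

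**Figure D4:**
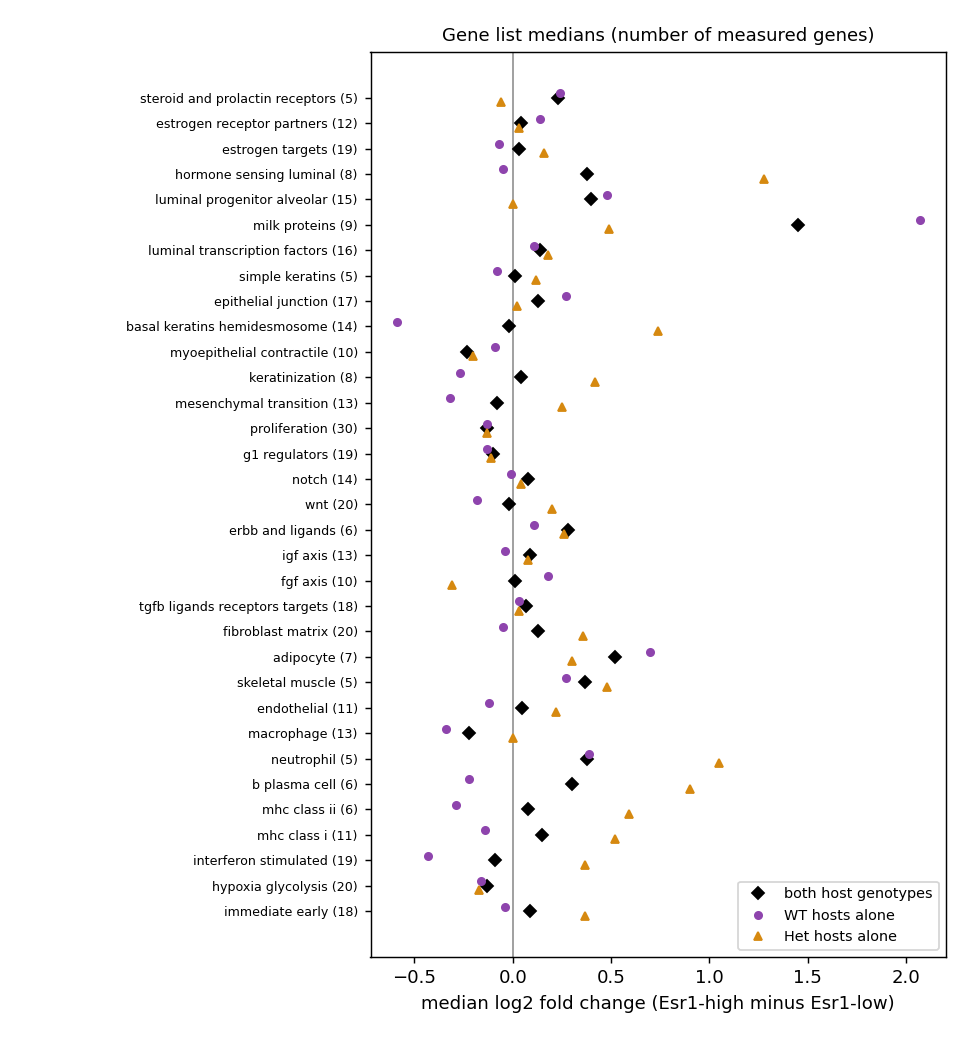
Median log2 fold change, Esr1-high minus Esr1-low (x axis), of the measured genes of each list with at least 5 (y axis, number in parentheses), for both host genotypes together (diamonds), wild-type hosts alone (circles) and heterozygote hosts alone (triangles). Milk proteins lie farthest right at 1.45. Many lists have medians of opposite sign in the 2 host genotypes. The hormone-sensing, basal keratin and interferon lists are among them, and so are the keratinization, mesenchymal transition, MHC, Wnt and endothelial lists.

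Whether the difference between classes itself differed between host genotypes was tested for every gene. limma called 0 of 11098, and 320 genes with a larger and 335 with a smaller value in heterozygote than in wild-type hosts had an unadjusted p under 0.05, 2.88% and 3.02%. The lowest p was that of Adam8, a metalloproteinase of leukocytes and tumor cells, with a difference of 1.63 (standard error 0.34, limma adjusted p = 0.593). It had 7.79, 8.14 and 9.38 in Esr1-high tumors of heterozygote hosts, against 7.01, 7.54 and 7.85 in Esr1-low tumors. In wild-type hosts it had 7.01, 7.54 and 8.18 in Esr1-high tumors, against 7.87, 8.18 and 9.27 in Esr1-low tumors. The order of the classes was thus turned round. Depdc7 had 2.24 and Pstpip2, an adaptor of the actin cytoskeleton, 1.91, with standard errors of 0.53 and 0.47. In the other direction Gstt1, a glutathione transferase, had -2.71 (0.69), Ttc27 -1.01 (0.26) and Gaa, the lysosomal glucosidase, -0.71 (0.18), each with a limma adjusted p of 0.807. Gstt1 had 7.45, 7.81 and 9.58 in Esr1-high tumors of heterozygote hosts, against 7.06, 9.66 and 10.43 in Esr1-low tumors, and 8.57, 9.69 and 11.01 in Esr1-high against 6.98, 8.07 and 9.34 in Esr1-low tumors of wild-type hosts.

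With Esr1 as a level across all 42 epithelial tumors in place of 2 classes, and host genotype as a block, genes did pass. limma called 50 genes that rose with Esr1 and 20 that fell. Without Het_irradiated replicate 32, whose Esr1 level stands apart, 7 rose and 0 fell, and 4 genes were called in both. Those 4, named after their values were seen, were Il33, an alarmin cytokine, Tlr4, the lipopolysaccharide receptor, Btg1, an antiproliferative factor, and Csn2. Il33 rose by 0.89 per log2 unit of Esr1 (limma adjusted p = 0.000555), and by 0.72 without replicate 32 (limma adjusted p = 0.046). For Tlr4 the slopes were 0.35 and 0.43 (limma adjusted p = 0.00476 and 0.00221), for Btg1 0.23 and 0.25 (0.00745 and 0.0289) and for Csn2 0.82 and 1.03 (0.0236 and 0.0289). Called only without replicate 32 were St8sia4 (0.51, limma adjusted p = 0.00195, the lowest of that fit), Met (0.91, 0.0289) and Gda (0.36, 0.0481). The calls of Dcn (0.76, limma adjusted p = 0.000555), Foxa1 (0.90, 0.0202), Krt19 (0.56, 0.0304), Stat5a (0.33, 0.0371) and Rasd1 (0.50, 0.0148) ended without that tumor, with limma adjusted p of 0.0558, 0.233, 0.253, 0.316 and 0.0916. So did that of Agtr1a, an angiotensin receptor gene (0.91, limma adjusted p = 0.00182, and 0.124 without it), and of Lca5, the only one of the 3 genes lower in Esr1-high tumors above to be called (-0.25, 0.0425, and 0.133 without it). Since these tumors include the 28 compared above, the slopes are no independent support of the class values.

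In the class comparison Il33 had a log2 fold change of 1.68 ± 0.48 (SE, limma adjusted p = 0.48). It ran from 7.76 through 9.71 to 12.68 in Esr1-high tumors of heterozygote hosts, against 5.15, 6.92 and 7.76 in Esr1-low tumors, so the ranges met without overlapping. In wild-type hosts Il33 had 7.07, 8.08 and 9.97 in Esr1-high tumors, against 6.71, 7.72 and 8.81 in Esr1-low ones. Agtr1a had 5.6, 8.56 and 12.86 in Esr1-high tumors of heterozygote hosts, against 5.03, 5.79 and 6.17 in Esr1-low ones. The highest level of each was again that of Het_irradiated replicate 32, and without it the values in heterozygote hosts were 2.54 for Il33 and 2.07 for Agtr1a. For Btg1 the class means differed by 0.805 in heterozygote and by -0.012 in wild-type hosts. Its level lay above the Esr1-low median in 6 of 6 and 4 of 8 Esr1-high tumors. Tlr4 differed in the same direction in both, by 0.963 and 0.566.

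**Figure D5:**
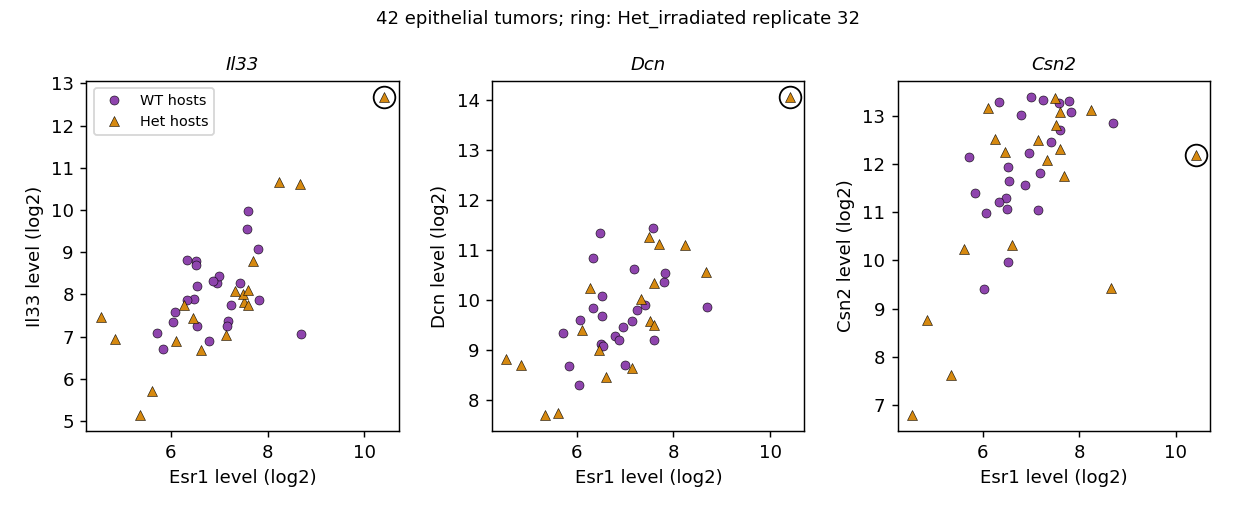
Log2 levels of Il33, Dcn and Csn2 (y axes) against that of Esr1 (x axes) in the 42 epithelial tumors of wild-type (circles) and heterozygote hosts (triangles); the ring marks Het_irradiated replicate 32. That tumor is highest for Il33, at 12.68, and for Dcn, at 14.06, and lies apart from the other tumors on the Esr1 axis.

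The lowest-p genes were also set against Esr1 in tumors the classes did not use, within host genotype, in 16 relations. None passed adjustment over the 16. Across the 14 dropped tumors Il33 had Pearson's r = 0.73 (permutation p = 0.00869, adjusted 0.139) and Spearman's rho = 0.732 (permutation p = 0.00719, adjusted 0.115). Without the 2 tumors farthest from the median of Esr1 its r was 0.391. That is a weaker relation over a narrower range of Esr1, and no p was computed for it. In the 14 middle tumors Pacc1 had r = -0.647 (permutation p = 0.025, adjusted 0.2) and rho = -0.64 (permutation p = 0.0273, adjusted 0.145), and r = -0.443 without the 2 farthest. Angpt1 had r = 0.0447 in the middle and r = 0.264 in the dropped tumors (permutation p = 0.854 and 0.398), with rho of -0.0813 and 0.284 (permutation p = 0.763 and 0.335) and adjusted p of 0.671 or more. Relations opposite in sign to the class difference occurred too. Inpp5b, lower in Esr1-high tumors at -0.44, had r = 0.58 (permutation p = 0.0762, adjusted 0.305) and rho = 0.714 (permutation p = 0.0146, adjusted 0.117) in the middle tumors, and r = 0.317 without the 2 farthest. Rasd1, higher in Esr1-high tumors at 1.24, had r = -0.568 (permutation p = 0.0519, adjusted 0.277) and rho = -0.56 (permutation p = 0.0567, adjusted 0.227) in the dropped tumors, and r = -0.385 without the 2 farthest.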

How the data were processed

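Total RNA of 56 tumors, 100 ng each, was measured on Affymetrix mouse expression arrays. The deposited values are log2 levels of probe sets that the authors computed by RMA, per the submitters' processing notes, with no version stated. Array medians differ by host genotype, so arrays were treated as normalized in 2 sets and classes compared within each.

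Of 45101 probe sets, 34958 carried 1 gene symbol, 932 several and 9211 none here; only the first kind was used, with the probe set of highest mean for a gene. Genes above the median of their array on at least 6 of the 28 arrays were tested (11098, of which 11072 matched RefSeq). limma 3.58.1 in R 4.3.3 fitted class with host genotype as a block, with Benjamini-Hochberg adjustment and a threshold of 0.05. Esr1 and the 4 score genes chose the tumors and were left out. Dimmer genes came from a fit with no filter. Array quality was compared by 100000 permutations within host genotype. Python 3.11.15, numpy 2.4.6, scipy 1.17.1 and matplotlib 3.10.9 served for the rest, and the fit was tested on simulated data.

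The members and the 36 gene lists were chosen with earlier results of these data known. Genes were named by a rule: per direction the 12 of lowest p past the threshold with an absolute log2 fold change of at least 1, or the 3 of lowest p where none passed; the 3 of lowest p of the difference between host genotypes in each direction; the members of lowest p in the lists described at length; and Esr1, Pgr, Greb1, Foxa1, Gata3, Prlr, Areg, Wnt4, Tnfsf11, Cited1, Elf5, Kit, Krt5, Krt8, Mki67 and the score genes. Il33, Tlr4, Btg1, Agtr1a, St8sia4, Met, Gda, Tbx3, Cxcl15, Fxyd2, Prom1, Tnfrsf11a and Adamts18 were added after their values were seen. The highest correlation between arrays was 0.99, and none was identical to another. Alternatives covered the filter, probe sets, normalization, array weights, covariates, the ranking and each array left out. The level of p53 itself is not reported here.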

Additional observations from a re-analysis of the deposited data

Results flagged for a closer look

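Single tumors stood apart from the rest of their class and host genotype in 23 of 264 sets of values tested with Dixon's criterion, which chance alone meets in about 1 of 20. In Esr1-high tumors of heterozygote hosts, Het_irradiated replicate 56 stood apart with Adam8 at 9.38, Csn2 at 9.42 and Susd3 at 5.81. Het_irradiated replicate 32 did so with Dcn at 14.06 and Stat5a at 10.45. Het_irradiated replicate 47 had Pacc1 at 6.27, and Het_irradiated replicate 49 had Tpx2 at 9.72.

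In Esr1-high tumors of wild-type hosts, WT_irradiated replicate 53 had Krt19 at 12.79 and Krt23 at 7.01, and WT_sham replicate 64 had Vdr at 8.37 and Lamb3 at 6.98. WT_irradiated replicate 2 had Tbx3 at 5.8.

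In Esr1-low tumors of wild-type hosts, WT_irradiated replicate 12 had Krt5 at 12.07, Cited1 at 9.22 and Tnfsf11 at 6.09, the last 2 being genes of hormone-sensing cells or their signals. WT_sham replicate 31 had Greb1 at 9.01 and Vim at 13.62, WT_sham replicate 3 had Pgr at 6.07, WT_irradiated replicate 36 had Ttc27 at 7.85 and WT_irradiated replicate 24 had Krt23 at 6.97. In Esr1-low tumors of heterozygote hosts, Het_sham replicate 58 had Krt5 at 10.97 and Het_sham replicate 52 had Cd14 at 8.83 and Prom1 at 4.52.

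Outside the classes, WT_irradiated replicates 59 and 11, dropped for a low epithelial score, had Esr1 at 10.44 and 9.23, above the highest Esr1-high tumor of wild-type hosts.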

How the results depend on the processing

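No gene was called between the classes except under 4 kinds of alternative and with some single tumors left out. Array weights gave 2 higher, Esr1 as a level over 42 tumors 50 higher and 20 lower, the same over 41 tumors, chosen after seeing the data, 7 higher, and ranking with no epithelial filter 41 higher and 34 lower. Leaving out each tumor gave 0 to 1 higher: without WT_sham replicate 3 Angpt1 was called (1.43, limma adjusted p = 0.0338) and without Het_sham replicate 52 Siah1a (0.47, 0.032). Over all tumors left out, the adjusted p ran from 0.0338 to 0.451 for Angpt1 and from 0.032 to 0.451 for Siah1a. The difference between host genotypes had 0 calls in every setting run.

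Signs turned round as follows, all for genes not called in the main class comparison, and the cause was not tested. Btg1, Krt19 and Stat5a, among them, were called with Esr1 as a level over 42 tumors. In wild-type hosts alone: Wnt4 -0.34, Krt5 -0.61, Krt8 -0.076, Stc2 -0.073, Lmod1 0.0057, Btg1 -0.012, Tbx3 -0.59, Fxyd2 -0.95, Cited1 -0.41, Tnfsf11 -0.42 and Adamts18 0.46. In heterozygote hosts alone: Elf5 -0.45, Kit -0.33, Mki67 -0.050, Tspan8 -0.28, Prom1 -0.032 and Greb1 0.54. With no epithelial filter: Gata3 -0.37, Elf5 -1.20, Kit -1.29, Krt8 -1.06, Mki67 -0.047, Ncoa1 -0.0087, Susd3 0.16, Cd14 -0.034, Stat5a -0.085, Krt19 -0.027, Lamb3 -0.49, Vim 0.44, Prom1 -1.21 and Cdh2 0.069. Ranked by the dimmer Esr1 probe set, chosen after seeing the data: Kit -0.058, Wnt4 -0.039, Krt5 -0.14, Krt8 -0.12, Adamts18 0.041 and Mki67 -0.12. With Esr1 as a level: Kit -0.093 and Mki67 -0.021 over 42 tumors, Wnt4 -0.079 and Krt8 -0.0075 over 41. With array weights: Wnt4 -0.032, Krt8 -0.099 and Adamts18 0.098. With all probe sets: Kit -0.077. With covariates: Krt8 -0.0080, Mki67 -0.059 and Adamts18 0.012 (18S), Krt8 -0.12, Prom1 -0.041 and Adamts18 0.46 (epithelial score), Krt8 -0.0018, Adamts18 0.0091 and Greb1 0.051 (host irradiation). Without the arrays of low 18S: Krt5 -0.020, Krt8 -0.0023 and Mki67 -0.067. Each tumor left out in turn gave ranges of -0.058 to 0.16 for Kit, -0.17 to 0.47 for Krt5, -0.059 to 0.077 for Krt8, -0.024 to 0.075 for Mki67, -0.050 to 0.29 for Wnt4, -0.083 to 0.50 for Prom1, -0.18 to 0.11 for Adamts18 and -0.15 to 0.26 for Greb1.

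No paired analysis was possible because replicate numbers in the labels do not recur across groups. Signal over background per probe was not analysed here, and genes near the floor have the least certain differences.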
